A study of Mus musculus with 3 samples.

Results

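The dystrophin-glycoprotein complex and the muscle caveolin are described here through 8 genes: Dmd, Utrn, Sntb1, Dag1, Sgca, Sgcb, Sgcd and Cav3. They were chosen by gene symbol from the 46316 symbols of the tables, and each gene was read from its transcript row with the highest count over the libraries. C2C12 is an established line of mouse myoblasts that fuse into myotubes in culture, and the RNA came from such cells at day 4 of differentiation. The 3 libraries were 1 of Drp1 knockout cells transiently expressing FLAG-tagged Drp1 (rescue), 1 of Drp1 knockout cells without it (KO) and 1 of wild-type cells (WT). Drp1 is the GTPase that divides mitochondria, and its gene is Dnm1l. How the knockout was made, how many clones it stands for, and how many of the rescue cells took up FLAG-Drp1 were not stated in the labels. The study, by its title, is about how mitochondrial dynamics bear on muscle fibre type and metabolism. Each group had 1 library, so there was no replicate error to set a difference against, no test was possible, and every value describes these libraries. Intervals are 95% intervals for counting error only.

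The dystrophin-glycoprotein complex crosses the muscle cell membrane and ties the actin skeleton inside to laminin outside. Dystrophin (Dmd) binds actin and, at its other end, beta-dystroglycan; utrophin (Utrn) is its close relative, found at neuromuscular junctions and in immature muscle. Dystroglycan (Dag1) is cut into a membrane part and an outer part that holds laminin through its sugar chains. The sarcoglycans (Sgca, Sgcb, Sgcd) form a side complex that steadies dystroglycan, and the syntrophins, here Sntb1, bind signalling proteins to dystrophin. Caveolin 3 (Cav3) builds the caveolae, small membrane pits, of muscle fibres. Loss of dystrophin causes Duchenne muscular dystrophy, and loss of sarcoglycans causes limb-girdle dystrophies.

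Promoter windows, placed by annotated start, are shown for Cav3, Dmd and Utrn. Cav3 and Dmd were the genes of the set that differed 2-fold between libraries. Utrn is the relative of dystrophin that did not. RefSeq windows of 300 bases on GRCm38.p6, from 250 before to 50 after the annotated start, matched 7 of the 8 genes and gave 9 windows; Sntb1 had none. Capitals mark each E-box, the letters CANNTG on either strand, which myogenic factors can bind; overlapping E-boxes run together. The windows lie at chr6:112459255-112459554 on the plus strand for Cav3, chrX:82948620-82948919 on the plus strand for the first of 2 Dmd windows, and chr10:12861686-12861985 on the minus strand for Utrn.
Cav3: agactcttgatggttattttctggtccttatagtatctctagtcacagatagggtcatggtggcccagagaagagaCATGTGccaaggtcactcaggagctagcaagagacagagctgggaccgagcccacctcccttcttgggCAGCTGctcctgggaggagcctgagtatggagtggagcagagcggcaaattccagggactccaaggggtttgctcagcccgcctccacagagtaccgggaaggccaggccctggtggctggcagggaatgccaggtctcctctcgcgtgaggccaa
Dmd: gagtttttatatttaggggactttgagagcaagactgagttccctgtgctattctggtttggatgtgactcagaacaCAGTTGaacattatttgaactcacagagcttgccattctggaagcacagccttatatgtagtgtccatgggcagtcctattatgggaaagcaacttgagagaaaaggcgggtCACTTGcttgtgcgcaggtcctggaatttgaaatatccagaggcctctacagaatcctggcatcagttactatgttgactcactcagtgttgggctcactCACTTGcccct
Utrn: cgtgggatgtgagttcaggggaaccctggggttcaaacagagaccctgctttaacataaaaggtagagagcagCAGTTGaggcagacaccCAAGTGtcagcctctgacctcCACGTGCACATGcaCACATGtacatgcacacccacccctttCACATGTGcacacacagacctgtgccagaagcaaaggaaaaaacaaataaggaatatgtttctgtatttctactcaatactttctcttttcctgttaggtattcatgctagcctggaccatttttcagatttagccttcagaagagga
The Cav3 window held 2 E-boxes, CATGTG and CAGCTG, which began 174 and 106 bases before the start. The Dmd window held 3 and the Utrn window 7. An E-box stood in 7 of the 9 windows of the set, while 72.3% of all 32851 promoter windows held at least 1. The 2 windows of Dag1 overlap and hold the same E-box, CACTTG, so that site is counted in both. The second Dmd window, not shown, and that of Sgcb held none. The letters CTA and, after any 4 bases, TAG, a loose form of the site of MEF2 factors that reads the same on both strands, were in none of the 9 windows and in 3.69% of all windows. These matches describe the letters of the windows, not bound sites. Whether an annotated start is the one used in these cells, or that of the transcript row counted here, was not examined. The bases before it may therefore not be the promoter in use, for Utrn as for the others.

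The 3 libraries held between 13790420 and 13925312 gene counts. Dnm1l was read with 1481 counts in rescue, 1284 in KO and 1823 in WT, so its RNA was lower in KO than in WT but not absent; which part of the gene was altered is not stated in the labels. All 10 myotube markers checked had 10 or more counts in every library, with a summed level of 19678 CPM, a count scaled to the library's TMM-adjusted total, in rescue, 16248 in KO and 15679 in WT. Acta1 and Myh3 carried that sum; the other 8 summed to 7743 CPM in rescue, 6650 in KO and 7696 in WT. In KO against WT 6 of the 10 were lower, 2 of them by at least 2-fold, Ckm and Actn2. Ckm, muscle creatine kinase, had 3527 counts in rescue, 1424 in KO and 4406 in WT, and Actn2, the Z-disc alpha-actinin, had 89 in rescue, 31 in KO and 176 in WT. Of 5 myoblast markers 4 reached 10 counts in every library, with only Pax7 below, and the list summed to 462 CPM in rescue, 417 in KO and 981 in WT. Most of that difference was Cdh15, 3.44-fold lower in KO than in WT; without it the sums were 221 CPM in rescue, 217 in KO and 294 in WT. The fibroblast list, of which 3 of 5 reached 10 counts in every library and Lum and Thy1 stayed under 10 in all of them, summed to 1322 CPM in rescue, 1507 in KO and 751 in WT. Col1a1 carried that sum, while Dcn went the other way, with 1792 counts in rescue, 1787 in KO and 5177 in WT. No adipocyte, endothelial or leukocyte marker reached 10 counts in any library, and Adipoq, Pecam1, Ptprc and Adgre1 were at 0. In bulk RNA, fewer cells of a type and less RNA per cell cannot be told apart, and the part of these marker levels in the results below was not tested.

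In KO, Cav3 was almost absent beside WT, Dmd was lower at very few counts, Dag1 and the sarcoglycans were modestly lower, and Utrn and Sntb1 were close to WT. All 8 genes passed the low-count filter of a mean of 1 CPM, which 13381 genes passed. Against WT, 2 of the 8 genes were at least 2-fold lower in KO, Cav3 and Dmd, and none was 2-fold higher. Among all genes that passed, 4.07% were at least 2-fold lower and 5.35% at least 2-fold higher. Of the 8, Cav3 alone had a counting interval entirely past 2-fold, beside 2.02% of all genes lower and 2.62% higher. The median log2 ratio of the 8 was -0.36, beside 0.00 for all genes, and 7 of the 8 lay below 0, beside 49.9% of all genes. The interval lay wholly below 0 for 6 genes and wholly above 0 for Utrn; at these depths 58.3% of all genes had an interval that left out 0.

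**Figure D1:**
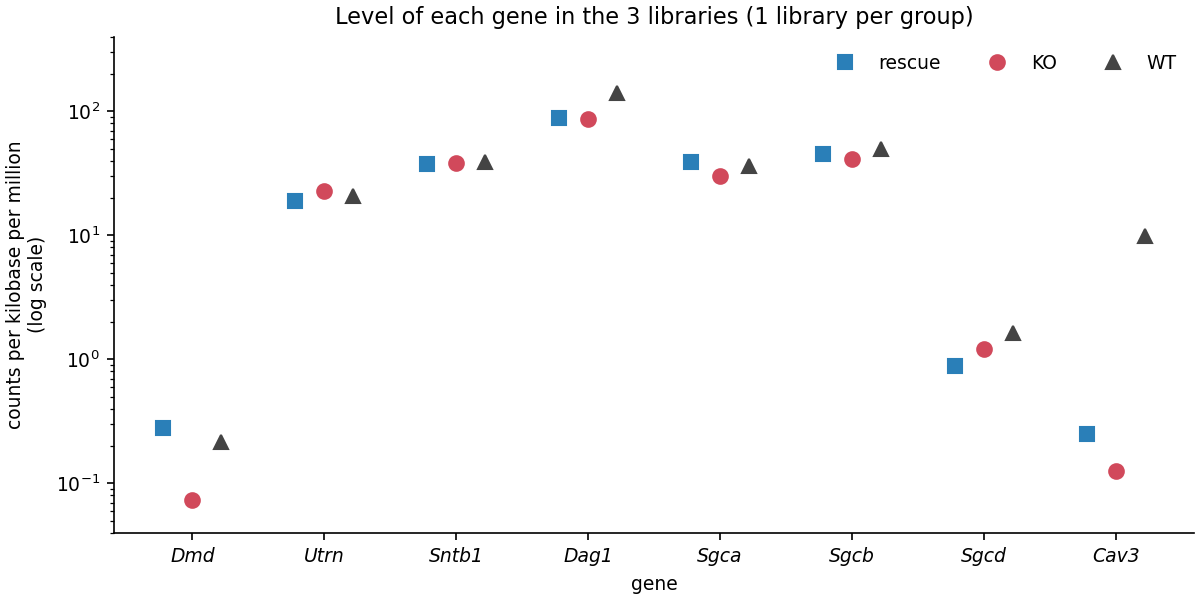
Levels of the 8 genes in CPM per kilobase of transcript, on a log scale, in the rescue (squares), KO (circles) and WT (triangles) libraries, 1 library per group. Dag1 stands highest in every library, between 86.5 and 140.3, Dmd lies at or below 0.278, and Cav3 is at 0.251 in rescue and 0.125 in KO, against 9.85 in WT.

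Per length, the genes kept nearly the same order in the 3 libraries, apart from Cav3. Dag1 was highest, at 88.4 CPM per kilobase in rescue, 86.5 in KO and 140.3 in WT. Sgcb came next, at 45.2 in rescue, 41.0 in KO and 50.2 in WT. Sntb1 and Sgca followed between 30.0 and 39.0, and their counting intervals overlapped in rescue and in WT but not in KO, where Sgca was lower. In KO the intervals of Sgcb and Sntb1 overlapped as well. Utrn lay at 19.0 in rescue, 22.6 in KO and 20.9 in WT. Sgcd, at 0.891 in rescue, 1.21 in KO and 1.63 in WT, was well below the other sarcoglycans. Cav3 was at 0.251 in rescue and 0.125 in KO, against 9.85 in WT, where it stood above Sgcd. Dmd, at 0.278 in rescue, 0.0732 in KO and 0.216 in WT, was the lowest of the 8 genes in WT, and in rescue and KO its interval overlapped that of Cav3. All values in this paragraph are levels, not differences.

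Dmd, dystrophin itself, was at a low level in these cells. It had 53 counts in rescue, 14 in KO and 42 in WT, from a transcript row of 13.9 kilobases. KO had the fewest reads and rescue the most. The log2 ratio of KO against WT was -1.53 (interval -2.55 to -0.66), a 2.88-fold lower level whose interval reaches across 2-fold. Rescue was 3.70-fold above KO (log2 1.89, interval 1.05 to 2.89). Rescue against WT gave a log2 ratio of 0.36 with an interval that includes 0 (-0.25 to 0.98). Both 2-fold differences rest on the 14 counts of the KO library, which the comparisons share. Of the 10 myotube markers, 6 were lower and 4 higher in KO than in WT. In rescue against KO, 9 were higher and 1 lower. Only Ckm and Actn2 differed by 2-fold in either comparison. Their log2 ratios were 1.31 and 1.51 in rescue against KO, and -1.60 and -2.46 in KO against WT. The part of the myotube markers in the Dmd values was not tested.

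The 19 transcript rows of Dmd all had fewer reads in KO. The full-length rows, from 13.9 to 16.2 kilobases, held 52 or 53 counts in rescue, 14 in KO and 42 in WT. Rows of the shorter forms, down to 1410 bases, held 3 to 28 counts in rescue, 2 to 9 in KO and 5 to 24 in WT. Over the rows, the log2 ratio of KO against WT ran from -2.13 to -1.08 and that of rescue against KO from 0.49 to 2.38. Rows of a gene share reads and are not separate measurements.

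Utrn, the relative that can stand in for dystrophin at the membrane, was far more abundant than Dmd. It had 3534 counts in rescue, 4223 in KO and 3959 in WT. Per length its level was 68.3 times that of Dmd in rescue, 309 times in KO and 96.6 times in WT. The value in KO rests on 14 counts of Dmd. Utrn in KO was 1.09-fold above WT (log2 0.12, interval 0.06 to 0.18). Rescue was lowest, 1.19-fold under KO (log2 -0.25, interval -0.32 to -0.19), and also 1.10-fold under WT (log2 -0.14, interval -0.20 to -0.07). The ratio of Dmd to Utrn, which does not depend on the scaling of the libraries, differed by -1.64 in log2 between KO and WT (interval -2.67 to -0.77) and by 2.14 between rescue and KO (interval 1.30 to 3.14).

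The transcript rows of Utrn did not move alike. The rows from 12.3 to 13.5 kilobases were highest in KO, with about the counts just given, whereas 4 rows were highest in WT. The longest of these 4, X11, of 11476 bases, had 2419 counts in rescue, 2574 in KO and 2759 in WT. Row X14, of 4898 bases, had 2375 counts in rescue, 2537 in KO and 2707 in WT. Its log2 ratio of KO against WT was -0.07 (interval -0.15 to 0.01). The reads that the row with the highest count held beyond X14 came to 1159 in rescue, 1686 in KO and 1252 in WT. KO exceeded WT in that remainder by 1.37-fold (log2 0.45, interval 0.35 to 0.56), and rescue fell short of KO by 1.45-fold (log2 -0.54, interval -0.65 to -0.43). The higher Utrn count in KO thus lay in reads that X14 does not hold. How the rows overlap on the genome was not analysed here, and the split was taken up after these values were seen.

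Utrn was set beside other genes with a similar pair of rows. In 575 genes the highest row could be set against an mRNA row at most 50% as long, with at least 100 counts in the shorter row and in the remainder in every library. The log2 ratio of the remainder minus that of the shorter row, KO against WT, was 0.52 for Utrn and had a median of -0.11 over the 575 genes. A higher difference than in Utrn was found in 4.70% of them. In rescue against KO the difference was -0.45 for Utrn, with a median of 0.11, and 3.48% of the genes had a lower one. The same difference for Sntb1 was -0.06 in KO against WT, and 0.09 when rescue was set against KO, near the medians.

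**Figure D2:**
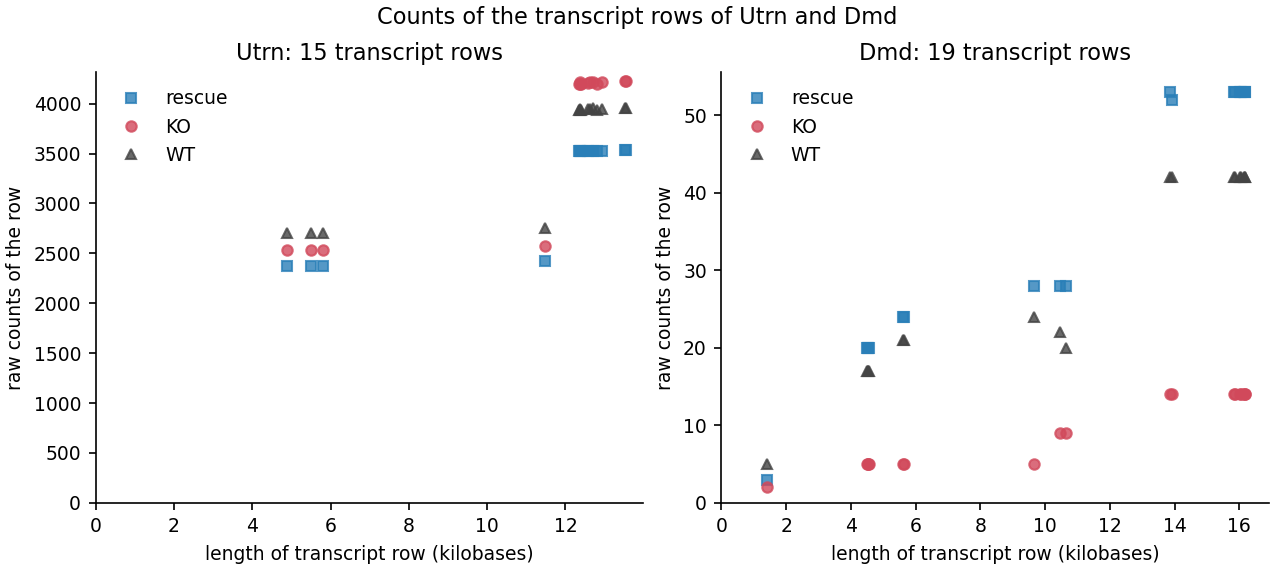
Raw counts of each transcript row of Utrn (left) and Dmd (right) against the length of the row in kilobases, for rescue (squares), KO (circles) and WT (triangles). The Utrn rows of 12346 bases or more are highest in KO, at up to 4223 counts. The others, of 4898 to 11476 bases, are highest in WT, and every Dmd row is lowest in KO.

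Sntb1, a syntrophin that binds dystrophin and utrophin, differed least. It had 2705 counts in rescue, 2715 in KO and 2815 in WT. The log2 ratio was -0.03 for KO against WT (interval -0.10 to 0.05), 0.00 for rescue against KO (interval -0.08 to 0.07) and -0.03 for rescue against WT (interval -0.11 to 0.05). All 3 intervals included 0. Its shorter row, of 2153 bases, held 42.7% of the counts of the longer in rescue, 44.3% in KO and 43.3% in WT.

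Dag1, which encodes both parts of dystroglycan, was lower in rescue and KO than in WT. It had 6797 counts in rescue, 6662 in KO and 10997 in WT, so that rescue and KO lay together and WT stood apart. KO reached 1.62-fold less than WT (log2 -0.70, interval -0.74 to -0.65), and rescue 1.59-fold less (log2 -0.67, interval -0.71 to -0.62). Between rescue and KO the log2 ratio was 0.03 (interval -0.02 to 0.08). Its 10 transcript rows were nearly alike, with 6778 to 6797 counts in rescue, 6652 to 6663 in KO and 10962 to 10997 in WT. The log2 ratio of Dag1 minus that of Dmd was -1.85 in rescue against KO (interval -2.86 to -1.02) and 0.83 in KO against WT, with an interval that includes 0 (-0.04 to 1.85). All 4 measured myoblast markers were, like Dag1, lower in rescue and KO than in WT, by 1.21-fold for Mki67 to 3.44-fold for Cdh15 in KO, and their part in this was not tested.

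The sarcoglycans were each a little lower in KO than in WT, and differed in rescue. Sgca, alpha-sarcoglycan, had 934 counts in rescue, 720 in KO and 890 in WT. KO was lowest, and rescue was slightly above WT. Its log2 ratio was -0.28 in KO against WT (interval -0.42 to -0.14) and 0.38 for rescue to KO (interval 0.24 to 0.52). In rescue against WT it was 0.10, with an interval that includes 0 (-0.04 to 0.23).

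Sgcb, beta-sarcoglycan, had 2323 counts in rescue, 2110 in KO and 2630 in WT. Rescue lay between the other libraries. The log2 ratio was -0.29 in KO against WT (interval -0.38 to -0.21), 0.14 in rescue against KO (interval 0.06 to 0.23) and -0.15 in rescue against WT (interval -0.23 to -0.07). The log2 ratio of Sgca minus that of Sgcb was 0.01 in KO against WT, with an interval that includes 0 (-0.15 to 0.18), and 0.24 for rescue to KO (interval 0.07 to 0.40).

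Sgcd, delta-sarcoglycan, had 112 counts in rescue, 152 in KO and 209 in WT. Here rescue was the lowest library. The log2 ratio was -0.43 in KO against WT (interval -0.75 to -0.13), -0.44 in rescue against KO (interval -0.80 to -0.08) and -0.87 in rescue against WT (interval -1.22 to -0.53). The log2 ratio of Sgcd minus that of Sgcb was -0.58 in rescue against KO (interval -0.95 to -0.21) and -0.72 in rescue against WT (interval -1.08 to -0.37). By their point values, the 3 sarcoglycans thus did not share an order of libraries. These ratios include a trend of the KO library with transcript length, described below. With it removed, the log2 ratio of rescue against KO was 0.27 for Sgca, 0.17 for Sgcb and -0.25 for Sgcd.

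Cav3, muscle caveolin, was the most different gene of the set. It had 4 counts in rescue, 2 in KO and 160 in WT, from its 1 transcript row of 1157 bases. The gene was near 0 in both rescue and KO and well read in WT. The log2 ratio was -5.98 in KO against WT (interval -9.35 to -4.42) and -5.13 in rescue against WT (interval -7.19 to -3.91). Rescue against KO gave 0.85 with an interval from -1.80 to 4.47, so no difference between those libraries was detectable at this depth. When counts were summed over the rows of every gene, Cav3, with its single row, came to a mean of 0.762 CPM, under the low-count filter, and was no longer counted. Of the 10 myotube markers, 6 were lower in KO than in WT, Actn2 the most, by 5.51-fold, and 4 were lower in rescue than in WT; all 4 measured myoblast markers were lower in both. The part of these markers in the Cav3 values was not tested.

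Cav1, the widely expressed caveolin that builds caveolae outside muscle, ran the other way. It had 1902 counts in rescue, 2307 in KO and 1491 in WT. KO stood 1.57-fold above WT (log2 0.65, interval 0.56 to 0.75), and for rescue the excess over WT was 1.30-fold (log2 0.38, interval 0.28 to 0.48). Per length, Cav1 stood at 210 times the level of Cav3 in rescue, 509 times in KO and 4.11 times in WT. The values in rescue and KO rest on 4 and 2 counts of Cav3. The log2 ratio of Cav3 minus that of Cav1 was -6.63 in KO against WT (interval -10.01 to -5.07). In rescue against KO it was 1.13, with an interval that includes 0 (-1.53 to 4.75).

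The protein-coding genes beside Cav3 on its chromosome, in the order of a RefSeq table of GRCm38.p6, were looked at after the Cav3 counts were seen. The nearest on either side, Ssu2 and Oxtr, had at most 3 counts in any library. Lmcd1, the next on one side, had 106 counts in rescue, 130 in KO and 72 in WT. On the other side Rad18, a ubiquitin ligase of DNA repair, had 108 in rescue, 119 in KO and 105 in WT, and Srgap3 had 800, 854 and 822. None of those 3 genes was 2-fold lower in KO or in rescue.

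**Figure D3:**
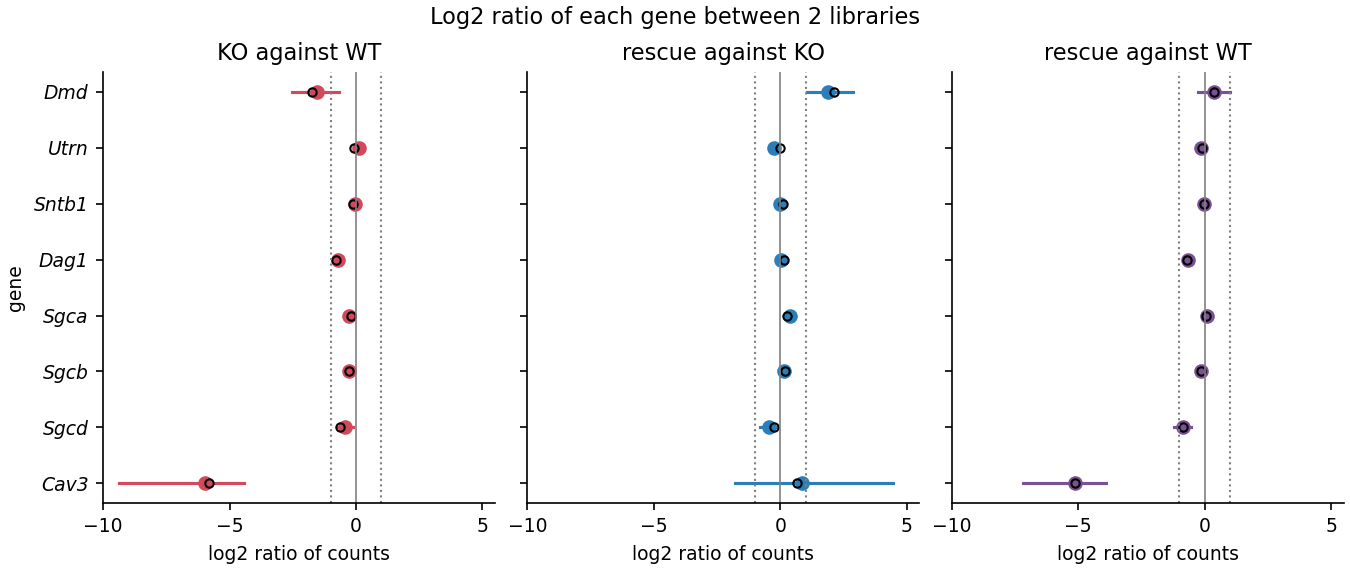
Log2 ratio of counts for each gene in KO against WT, rescue against KO and rescue against WT (filled points), with 95% intervals for counting error (bars) and the ratio after the length trend was removed (open circles). Dotted lines mark 2-fold. Cav3 and Dmd lie past 2-fold in KO against WT, Dmd in rescue against KO, and Cav3 in rescue against WT.

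In rescue against KO, 1 of the 8 genes, Dmd, was at least 2-fold higher and none lower, beside 1.30% of all genes higher and 0.575% lower. For Dmd the interval lay wholly beyond 2-fold, beside 0.306% of all genes higher and 0.0374% lower. The median log2 ratio of the 8 was 0.09, beside 0.00 for all genes. The interval lay above 0 for Dmd, Sgca and Sgcb, and below 0 for Utrn and Sgcd. At these depths 35.3% of all genes had an interval that left out 0 in this comparison. In rescue against WT, Cav3 was the 1 gene at least 2-fold lower and none was higher, beside 3.06% and 4.59% of all genes. The interval for Cav3 lay wholly beyond 2-fold, beside 1.39% of all genes lower and 2.19% higher. The median of the 8 was -0.14, beside 0.01 for all genes. Rescue and KO are each compared with the same WT library here, and their ratios to it are not independent.

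The KO library differed from the others by transcript length, which touches these genes because Dmd and Utrn are among the longest transcripts. When protein-coding genes were placed in 20 bins of length, the median log2 ratio of KO against WT was -0.24 in the shortest bin, of about 731 bases, and 0.19 in the longest, of about 11943 bases, which holds Dmd and Utrn. For rescue against KO the medians were 0.25 in the shortest bin and -0.25 in the longest. With that trend removed, Utrn had -0.08 in KO against WT, with -0.01 for rescue against KO, and its higher value in KO was no longer seen. In the same order of comparisons, Dmd had -1.72 and 2.13, and Dag1 -0.80 and 0.13. Sgca had -0.21 and 0.27, Sgcb -0.27 and 0.17, and Sgcd -0.62 and -0.25. Sntb1 had -0.13 and 0.10. Cav3, in the second shortest bin, had -5.79 in KO against WT. In rescue against WT the trend was small, at 0.05 in the shortest bin and -0.02 in the longest.

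**Figure D4:**
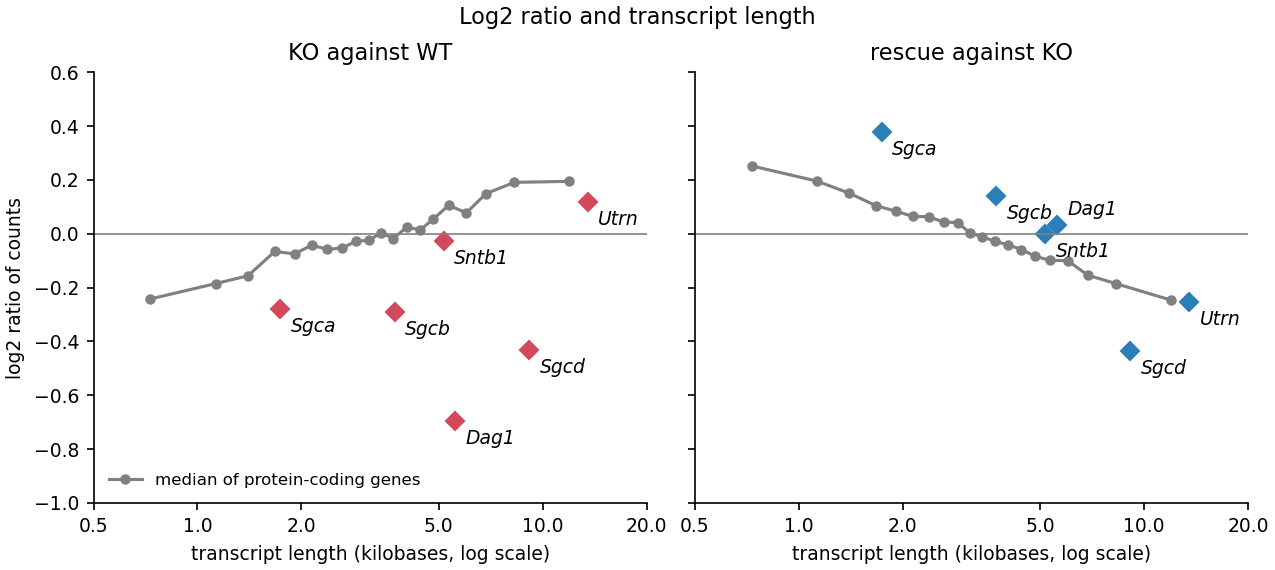
Log2 ratio against transcript length in kilobases (log scale) for KO against WT (left) and rescue against KO (right). Grey points are medians of protein-coding genes in 20 length bins and diamonds are 6 of the genes, Dmd and Cav3 lying outside the range shown. Utrn falls close to the grey line in both panels, while Dag1, at -0.70, lies far below it in KO against WT.

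Genes with the most similar pattern were sought by Euclidean distance over the log2 ratios of KO to WT and of rescue to KO. The pool was 9067 named protein-coding genes that reached 100 counts in their highest library. Such a likeness rests on 3 libraries, and the distances take no account of counting error. For Dmd and Cav3 the counting intervals given above are far wider than the distances below. Which genes come nearest to these 2 is therefore uncertain. The nearest to Dmd were Popdc2, Pgam2 and Nmrk2, at distances of 0.133, 0.170 and 0.194. Popdc2, a Popeye domain membrane protein of muscle, had 210 counts in rescue, 56 in KO and 181 in WT. Pgam2, the muscle phosphoglycerate mutase, had 353, 103 and 331 in the same order of libraries, and Nmrk2, a muscle nicotinamide riboside kinase, had 284, 70 and 228.

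The nearest to Cav3 were Pnmal2, Myo18b and Clca3b, at 0.264, 0.303 and 0.894. Pnmal2 had 7 counts in rescue, 3 in KO and 212 in WT. Myo18b, an unconventional myosin of muscle, had 16 in rescue, 10 in KO and 574 in WT. Clca3b had 4 in rescue, 3 in KO and 133 in WT. The nearest to Dag1 were Myl9, a smooth muscle and non-muscle myosin light chain, with 520 counts in rescue, 508 in KO and 837 in WT, then Dusp10 and Htra3. The nearest to Sgcd were Ptprg, Adgrl3 and Lrrc8b, at 0.0636 to 0.0879. The genes nearest to Utrn were Zbtb20, Acaca and Pign, those nearest to Sgca were Atp6v1g1, Psma5 and S100a1, those nearest to Sgcb were Slc25a11, Eftud2 and Pdcd10, and those nearest to Sntb1 were Hsf1, Pigu and Cdip1, all at most 0.0134 away.

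The rest of the pathway was read from 7 lists with 90 genes. Their counts stand beside the shares of all genes given above, 4.07% at least 2-fold lower and 5.35% higher in KO against WT. Of the 12 other genes of the dystrophin complex 9 passed the filter, and 1 was at least 2-fold lower in KO than in WT with none higher. That gene, Drp2, a dystrophin-related protein best known from Schwann cells, had 170 counts in rescue, 186 in KO and 701 in WT. Its log2 ratio was -1.89 in KO against WT (interval -2.13 to -1.65) and -2.01 in rescue against WT, read from a non-coding transcript row of the gene. Drp2 is not related to Drp1. The median of the 9 was 0.26 for KO to WT and -0.13 for rescue to KO. Once the length trend was removed, these medians were 0.16 and 0.04. The 3 that did not pass, Sgcz, Sntg1 and Sntg2, had 0 counts in every library.

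Dystroglycan holds laminin through sugar chains built by a series of enzymes. Of 19 genes for these enzymes 18 passed the filter, and none was 2-fold higher or lower in any of the comparisons with the highest row. Under other choices of transcript row the count of enzyme genes at least 2-fold lower was 0 or 1. Their median log2 ratio was -0.09 in KO against WT, -0.01 in rescue against KO and -0.16 in rescue against WT. The interval left out 0 below in 6 and above in 2 in KO against WT, beside 58.3% of all genes in either direction.

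Genes for proteins that dystroglycan or its partners bind outside the cell were mostly higher in KO than in WT. Of 13 listed 10 passed. In KO against WT, 8 of them lay above 0 and 2 below, beside 50.1% of all genes above 0. At least 2-fold higher was 1 gene, and 1 was lower. The median was 0.68, and 0.55 with the length trend removed. Agrn, agrin, which clusters acetylcholine receptors, had 2988 counts in rescue, 3813 in KO and 1487 in WT (log2 ratio of KO against WT 1.38, interval 1.30 to 1.47). Nrxn3, a neurexin, had 114 in rescue, 27 in KO and 207 in WT (log2 -2.89, interval -3.55 to -2.33), with rescue 4.17-fold over KO (log2 2.06, interval 1.47 to 2.74). Lama4, a laminin chain, had 27 in rescue, 23 in KO and 12 in WT, and like Agrn was at least 2-fold higher in rescue than in WT (log2 1.17 and 1.03), with intervals that reach below 2-fold; with counts summed over rows Lama4 was no longer counted. Of the fibroblast markers, Col1a1 and Pdgfra moved the same way as Agrn in KO against WT (log2 1.86 and 1.12) and Dcn the opposite way (log2 -1.51), and their part in this was not tested.

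Caveola and membrane repair genes held further lower values. Of the 10 other caveolins, cavins and partners, all of which passed, 1 was at least 2-fold lower in KO and in rescue than in WT and none higher. Cavin2, which shapes caveolae, had 1526 counts in rescue, 1754 in KO and 4047 in WT (log2 ratio of KO against WT -1.18, interval -1.26 to -1.10). Of 11 membrane repair genes 10 passed, and all 10 lay below 0 in KO against WT, beside 49.9% of all genes. The interval lay wholly below 0 for 8 of the 10, beside 58.3% of all genes with an interval that left out 0 on either side. With the length trend removed, 1 of the 10, Anxa5, came to 0.005. The median in KO against WT was -0.53, also after removal of that trend. It was 0.07 in rescue against KO and -0.48 in rescue against WT. Ano5, an anoctamin whose loss causes a limb-girdle dystrophy, had 3 counts in rescue, 3 in KO and 175 in WT (log2 ratio of KO against WT -5.62, interval -8.13 to -4.27). Like Cav3 it was near 0 in both rescue and KO. Dysf, dysferlin, which reseals torn membrane, had 1001 counts in rescue, 1001 in KO and 1066 in WT.

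Genes that link the membrane to the skeleton went both ways in KO. Of 17 costamere and filament genes 15 passed, with 1 at least 2-fold higher in KO than in WT, 1 lower, and a median of -0.02. The interval lay below 0 for 7 of the 15 and above 0 for 6, beside 58.3% of all genes with an interval on either side. The median was -0.23 for rescue to KO and -0.16 for rescue to WT. Removing the length trend gave medians of -0.12 for KO to WT, -0.04 for rescue to KO and -0.16 for rescue to WT. Ank2, ankyrin B, which helps place dystrophin at the membrane, had 501 counts in rescue, 693 in KO and 293 in WT (log2 ratio of KO against WT 1.27, interval 1.07 to 1.47). Krt19, a keratin that links the contractile apparatus to dystrophin, had 106 in rescue, 58 in KO and 159 in WT (log2 -1.42, interval -1.89 to -0.99). None of the 8 integrin genes was 2-fold different in KO from WT, and 1, Itgb1bp2 (melusin), exceeded 2-fold in rescue over KO, with 1213 counts in rescue, 549 in KO and 959 in WT (log2 1.15, with an interval that begins at about 2-fold). With the length trend removed it no longer reached 2-fold.

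**Figure D5:**
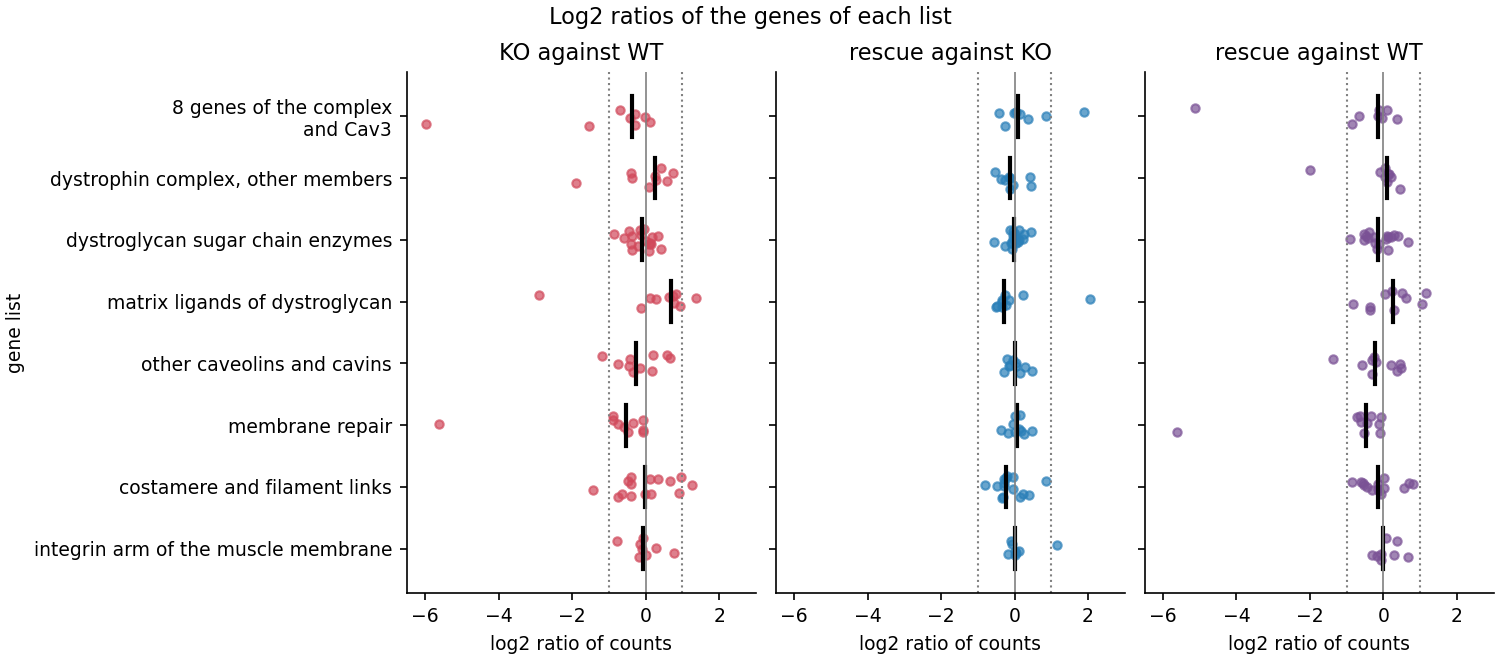
Log2 ratios of the 8 genes and of the genes of the 7 pathway lists that passed the low-count filter, 1 point per gene, in KO against WT, rescue against KO and rescue against WT. Black bars are medians and dotted lines mark 2-fold. Cav3 and Ano5 stand far to the left in the panels against WT. All 10 membrane repair genes lie below 0 in KO against WT, 8 of them with a counting interval wholly below 0. Of all genes, 58.3% had an interval that left out 0 on either side in that comparison.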

How the data were processed

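Per the submitters' processing notes, reads were processed with cutadapt 1.9.1, HISAT2 2.2.1 and featureCounts 2.0.0 on mouse GRCm39 (mm39); their settings and the strand rule were not given in the sources used here. In each of the deposited tables stood raw read counts of 139023 RefSeq transcript rows, and the deposited RPKM and TPM columns recompute from those counts and lengths to within 4.98e-06 and 4.40e-06; only the counts were used further. Rows of a gene share reads (in 5388 genes with 2 or more mRNA rows and 1000 counts or more, the lowest row held a median of 98.0% of the highest), so the row with the highest total stood for a gene, a curated row where rows tied. Per the file headers and the labels, every library is a separate sample and there are no replicates.

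TMM factors from edgeR 4.0.16 (R 4.3.3) scaled the counts (0.989 for rescue, 1.00 for KO, 1.01 for WT). The log2 ratio was taken after adding 0.5 to each count. Genes with a mean of 1 CPM or more were kept, and called means 2-fold or more. Intervals of ratios are exact conditional (Clopper-Pearson) 95% intervals, those of levels exact Poisson ones, and those of a ratio between genes exact conditional intervals of an odds ratio. They cover counting error alone: without molecular identifiers, reads cannot be taken as independent molecules. The scripts were tested on simulated data. List genes were named by rule. Up to 4 per list were taken, by size of the KO against WT ratio, among genes 2-fold different in any comparison with 20 counts or more. Cav1 was named as a partner of a ratio. Dysf, Anxa5, the markers, the neighbours of Cav3 and the genes at 0 were named after their values were seen. For each gene of the set, the 3 nearest patterns were named. The genes and lists were chosen with earlier results of these data known. Some results, that of 1 marker list among them, are not reported here. RefSeq on GRCm38.p6 was the source of neighbours, synonyms and overlapping genes. Genes that overlap a gene of the set there had at most 3 counts where their symbol was found here. Of the 7 overlapping Dmd only 3 were found. Those overlapping Sgca, Sgcd and Cav3 were not all found either, and counts of the missing ones are unknown. Alternatives were scaling to total counts, DESeq2 1.42.0 size factors, no filter, 1 added, the sum over rows, the longest row, and a length trend removed.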

Additional observations from a re-analysis of the deposited data

How the results depend on the processing

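No paired analysis was possible because each group has 1 library. Of 63 recomputed counts and medians of the set, 61 held under the 7 alternatives: counts stayed within 1.5 times, and medians stayed within the mean counting interval of the genes at the median. Within that range the median of rescue against KO ran from 0.03, with the sum over rows, to 0.15, with the length trend removed. The exceptions came with the sum over transcript rows, where the genes 2-fold lower numbered 1 in KO against WT, and 0 for rescue to WT: Cav3, with 1 row, then had a mean of 0.762 CPM and failed the filter. Of 168 ratios of single genes, 162 stayed within their counting interval, and the other 6, of Utrn, Dag1 and Sntb1, moved when the length trend was removed. Utrn then changed sign in KO against WT, to -0.08. All 8 genes passed the low-count filter, so leaving it out could not move their values, which were 24 of the 168 and 9 of the 63. Over all genes, leaving out the low-count filter gave 3332 higher and 3605 lower in KO against WT, 2861 and 2413 for rescue to KO, and 3429 and 3292 in rescue against WT, since genes of a few counts then enter. The sum over rows gave 110 higher and 48 lower in rescue against KO; the cause was not tested. Of 294 list counts 279 stayed within 1.5 times. Depth limits Cav3 in rescue and KO and Dmd in KO, where counts were 14 or fewer.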
